A study of Mus musculus with 16 samples.

Results

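The 8 genes described here encode the DNA topoisomerases of the mouse (Top1, Top1mt, Top2a, Top2b, Top3a and Top3b) and the tyrosyl-DNA phosphodiesterases (Tdp1 and Tdp2). They were taken by gene symbol from tables that list 22440 genes, and all 8 were present in all 4 RNA libraries. The libraries came from primary cultures of cortical neurons taken at embryonic day 16 from Swiss-Webster mice. One library came from a culture whose title names no treatment (the etoposide control) and one from a culture given 5 µM etoposide, a drug that traps type II topoisomerases on cut DNA, and the labels give no length for this treatment. Another library came from a further culture likewise titled with no treatment (the NMDA control), and the last from a culture given NMDA, an agonist of a class of glutamate receptor, which the labels give as 50 µM for 10 min and 10 min of recovery in most experiments. The other 12 of the 16 samples are chromatin samples and were not analysed here. Since a group is a single library, nothing below could be checked against the spread between cultures, and p-values are not given.

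Topoisomerases relieve the twisting and tangling of DNA by cutting it, and during the cut a tyrosine of the enzyme is bound to the end of the DNA. Top1 cuts a single strand and works ahead of moving RNA polymerases, and Top1mt is its mitochondrial relative. Top2a and Top2b cut both strands. Top2a serves chromosome separation in dividing cells, while Top2b is the type II enzyme of cells that have stopped dividing, neurons among them. Top3a resolves linked DNA strands together with the Bloom helicase and the Rmi proteins, and Top3b, partnered by Tdrd3, also acts on RNA. When a cut is not resealed, the enzyme stays on the DNA as an adduct. Tdp1 removes remnants of Top1 from such ends and Tdp2 those of Top2.

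The promoters of Top2a and Top2b are shown first, because these paralogs were at very different levels across the 4 libraries (below). Each line gives the 250 bases before the RefSeq start site, read 5′ to 3′ on the strand of the gene, and capitals mark matches to CCAAT or to its reverse complement ATTGG. The CCAAT box is the binding sequence of the factor NF-Y and is common in promoters of genes used by dividing cells. An exact match to the mouse genome of build mm9, which the submitters' processing notes name, put the Top2a window at chr11:98885504-98885753 (minus strand) and the Top2b window at chr14:17197470-17197719 (plus strand).
Top2a: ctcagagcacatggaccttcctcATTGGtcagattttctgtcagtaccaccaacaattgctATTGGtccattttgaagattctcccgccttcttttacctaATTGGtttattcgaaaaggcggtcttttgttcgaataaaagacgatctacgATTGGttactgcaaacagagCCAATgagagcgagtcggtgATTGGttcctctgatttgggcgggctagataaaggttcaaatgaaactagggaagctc
Top2b: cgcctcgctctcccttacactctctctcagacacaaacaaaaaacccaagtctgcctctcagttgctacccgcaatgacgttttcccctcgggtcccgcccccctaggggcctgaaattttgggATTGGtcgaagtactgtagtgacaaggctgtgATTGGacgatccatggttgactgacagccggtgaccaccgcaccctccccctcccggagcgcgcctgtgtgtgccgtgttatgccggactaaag
The Top2a window held 6 matches, 5 of them as ATTGG and 1 as CCAAT, starting 227, 189, 149, 98, 78 and 58 bases before the start site. Top2b had 2 matches, at 126 and 94 bases. Of the 32851 promoter windows of this length in the RefSeq table (build GRCm38.p6), 33.8% held at least 1 match, 10.1% at least 2 and 0.0578% (19 windows) at least 6. Of the other members, Top1 and Tdp1 had no match to the motif in their windows and Top3b had 1. The promoters of Top1mt, Top3a and Tdp2 were not matched.

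The levels are given in FPKM, fragments per kilobase of transcript scaled to the fragment total of the library, so they can be compared between genes of a library. Steps between low values of single-exon genes put the totals used for scaling near 17.5 M fragments in the etoposide control and 15.6 M with etoposide, and near 24.2 M and 22.9 M in the NMDA control and NMDA libraries. The step was sharp in the NMDA pair and loose in the etoposide pair, where 61 of 444 and 42 of 462 genes lay below it. With other lengths subtracted, the fragment numbers of the members went from 29.5% lower to 5.06% higher. They are thus approximate, and the exact 95% intervals made from them cover counting error only. All 7 pan-neuronal markers were at FPKM of at least 1 in every library, and the sum of their FPKM was 620 and 383 in the etoposide control and with etoposide, and 1595 and 1729 in the NMDA control and with NMDA. RNA of markers of other cells was detected too. The sum over 7 astrocyte markers was 98.4, 51.0, 880 and 858 FPKM, and that over 7 oligodendrocyte lineage markers 20.3, 4.70, 193 and 188, in the same order. The 6 microglial markers summed to between 0.243 and 4.47 FPKM, with C1qb listed at 0 in both libraries of the etoposide pair and C1qa at 0 in its control. All 8 members had higher FPKM in the NMDA pair. The median over 9533 genes at FPKM of at least 1 in all libraries was 5.65 and 4.18 FPKM in the control and treated libraries of the etoposide pair but 17.3 and 17.7 in those of the NMDA pair, so levels are compared within a pair unless stated.

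Top2b was the most abundant of the 8 genes in every library. Its FPKM was 24.2 in the etoposide control and 12.5 with the drug, against 58.5 and 67.7 in the NMDA control and NMDA libraries, from about 2282, 1055, 7725 and 8401 fragments, and between 93.1% and 95.6% of all listed genes were lower. It made up 64.3%, 57.4%, 50.4% and 52.4% of the summed FPKM of the 6 topoisomerases in the same order. The gene lies on chromosome 14 from 17197720 to 17263301 (mm9, plus strand), spans 65.6 kb, and has a full-length coding transcript of 36 exons and 5660 bases. No exon of another gene overlaps its exons in the annotation of this build (GENCODE vM1).

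Top1 was next to Top2b in 3 of the 4 libraries, at 6.06 and 3.72 FPKM in the control and treated libraries of the etoposide pair and 27.8 and 32.1 in those of the NMDA pair. With etoposide it stood behind Top3b and Tdp2, but the counting intervals of neighbours among these 3 overlapped. Top1 (chromosome 2, 160471633 to 160548499, plus strand) is the longest of the 8 genes, at 76.9 kb and 21 exons. Its mitochondrial relative Top1mt (chromosome 15, 75487463 to 75509220, minus strand, 14 exons) was lower in every library, at 1.15, 0.568, 5.24 and 5.58 FPKM in the order above. An exon of Top1mt overlaps Gm15945 on the opposite strand, and where the counting does not tell strands apart their reads cannot be told apart either.

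The type IA enzymes were far apart, with Top3b above Top3a in each library. Top3b (chromosome 16, 16870984 to 16893079, plus strand) was at 4.64, 4.01, 10.8 and 10.6 FPKM in the order etoposide control, etoposide, NMDA control and NMDA. Top3a (chromosome 11, 60553561 to 60590867, minus strand) was at 0.828, 0.758, 1.81 and 1.57 FPKM, from about 29, 24, 93 and 75 fragments. Their ratio was 5.60 (interval 3.79 to 8.56), 5.29 (3.44 to 8.49), 5.96 (4.80 to 7.48) and 6.74 (5.30 to 8.68), and all 4 intervals overlapped. Top3b has an exon overlap with Vpreb1, a gene of developing B cells, on the opposite strand.

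Of the phosphodiesterases, Tdp2 was listed above Tdp1 in each library. Tdp2 (chromosome 13, 24923528 to 24934022, plus strand), the shortest of the 8 genes at 10.5 kb and 7 exons, was at 3.01, 3.79, 11.2 and 12.4 FPKM in the order above. Tdp1 (chromosome 12, 101122725 to 101193426, plus strand, 70.7 kb) was at 2.19, 1.77, 5.78 and 4.78 FPKM. In the etoposide control the counting intervals of these neighbours overlapped, so their order there is not resolved.

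Top2a was the member whose place differed most between the pairs. It was at 0.797 FPKM in the etoposide control and 0.234 in the treated library, from about 69 and 18 fragments. That was the lowest of the 8 genes in both, although the interval overlapped that of Top3a in the control and that of Top1mt with the drug. In the NMDA pair it was at 11.8 and 11.5 FPKM, from about 1437 and 1311 fragments, close to Tdp2 and Top3b, with overlapping intervals. The gene (chromosome 11, 98854261 to 98885503, minus strand) spans 31.2 kb, and a small nucleolar RNA, SNORA32, lies within its exons on the same strand.

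**Figure D1:**
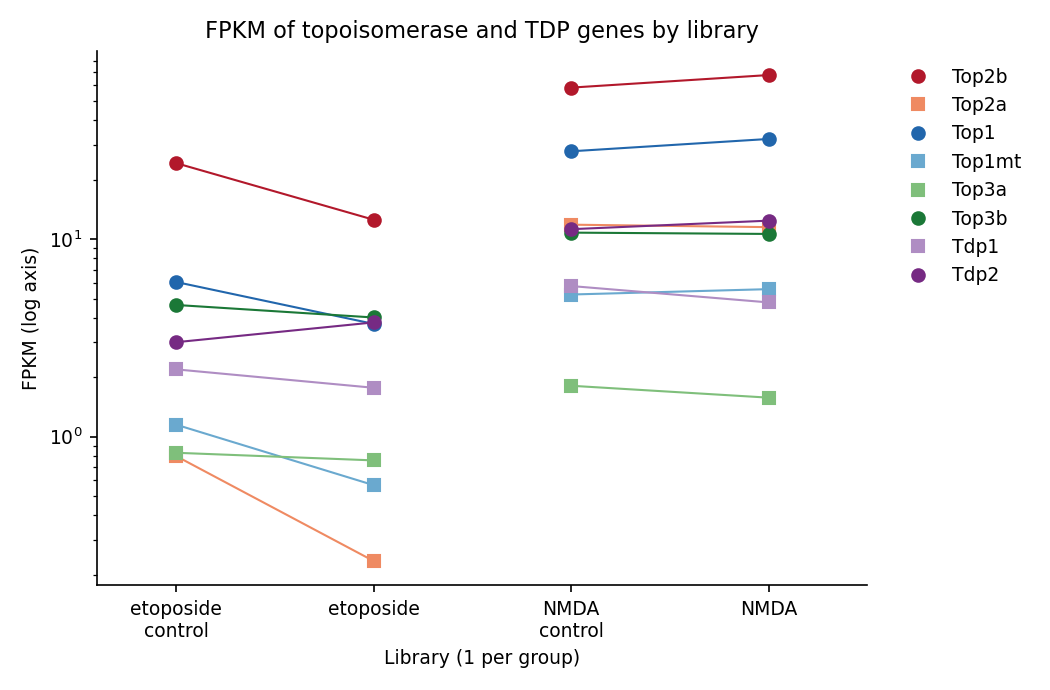
FPKM on a log axis for the 8 genes (points, 1 library per group), with lines joining each control to its treated library. Top2b is uppermost in all 4 libraries, and Top2a is lowest in the etoposide pair at 0.797 and 0.234 FPKM but near 11.8 and 11.5 in the NMDA pair.

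Etoposide against its control compares transcripts of a culture given the drug with those of a culture titled with no treatment. Trapping of the enzymes that etoposide targets was not measured in the RNA libraries. As deposited, 7 of the 8 genes had a lower FPKM in the etoposide library, and Tdp2 was the exception. Across the 15697 genes above 0 in both libraries 69.4% were lower, with a median ratio of 0.779, so a lower FPKM was the common case. No member was in the authors' deposited table for etoposide, which lists 12 genes as higher and 680 as lower. These are 0.0535% and 3.03% of the 22440 genes, so most genes are absent from it.

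Top2b, a target of etoposide, was 1.93-fold lower in the etoposide library (interval 1.8 to 2.08). On the scale used for all genes, log2((treated + 1)/(control + 1)) of FPKM for genes at FPKM of at least 1 in either library, its difference was -0.90, against a median of -0.32 over 10681 genes. Only 10.4% of these genes had a lower value. Relative to that median, Top2b was at -0.58, and after scaling each library to the median gene its log2 fold was -0.50. Of 5 equal groups of genes by span, the one that holds Top2b (35.8 to 80.7 kb) had a median of -0.42 with quartiles of -0.66 and -0.18, and Top2b lay below the lower quartile. The pan-neuronal markers were also lower, all 7 of them, with a median log2 fold of -0.67 and a range from Rbfox3 at -1.47 to Stmn2 at -0.12. Tubb3, a neuronal tubulin, was at 209 and 101 FPKM. The 5 excitatory neuron markers were all below 0 too, with a median of -0.95. The 6 inhibitory neuron markers had a median of -0.52, with 4 below 0 and 2 above, Sst among the latter at 1.32. Markers of cells other than neurons had medians below the pan-neuronal one. These were -0.91 over 6 astrocyte, -1.50 over 2 oligodendrocyte lineage, -1.50 over 3 progenitor and -2.01 over 2 vascular markers compared. The astrocyte median was not below the excitatory one. Every compared marker of the non-neuronal cells was below 0. The part of these cells in the value of Top2b was not tested, and in RNA from a whole culture fewer cells of a type and less RNA per cell cannot be told apart.

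Top2a, the other target, was 3.4-fold lower (interval 2.0 to 6.07) and had FPKM below 1 in both libraries, so it did not enter the comparison of all genes. The pseudocount compresses its log2 fold to -0.54. Of the 21 dividing-cell genes, all above 0 in each library, 17 were lower by plain ratio and 4 higher, with a median ratio of 0.611, against 69.4% lower and a median ratio of 0.779 over all genes above 0 in both libraries. The 8 of them at FPKM of at least 1 in either library had a median log2 fold of -0.22, above the -0.32 of all genes, with 6 of 8 below 0 against 76.7%. The 2 comparisons differ in measure as well as in the genes taken. With a pseudocount of 0.1 FPKM in place of 1, the median of the same 8 was at -0.03 relative to that of all genes. Mki67, a marker of proliferating cells, was at 0.271 and 0.0962 FPKM, Ccnb1 (cyclin B1) at 0.515 and 0.0564, and Ube2c, an enzyme of mitotic exit, at 1.20 and 0.370. The higher ones were Pcna, the sliding clamp of replication, at 11.7 and 15.4 FPKM, Tyms (thymidylate synthase) at 4.95 and 5.87, Nusap1 at 0.406 and 0.502, and Ccnb2 at 0.327 and 0.333. The summed FPKM of the list, to which Pcna and Tyms contributed most, was 29.5 and 29.1, and the part of dividing cells in the value of Top2a was not tested. Nes and Vim, intermediate filament genes of neural progenitors, were lower as well, at 8.84 and 2.48 FPKM and at 72.5 and 24.4 FPKM. Of the same marker list, Sox2 was at 5.28 and 3.11 FPKM and Pax6 at 0.683 and 0.353. Eomes went the other way near 0, at 0.0312 and 0.0882 FPKM.

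Top1 was 1.63-fold lower with etoposide (interval 1.37 to 1.94). Its log2 fold of -0.58 lay nearer the median of all genes than that of Top2b, with 27.8% of genes lower, and it was -0.24 after median scaling. Top1mt was 2.02-fold lower from about 33 and 15 fragments, and its interval of 1.07 to 4.01 is wide. A fragment number at the low end of the range above would widen it further.

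For Top3a, Top3b and Tdp1 no difference between the libraries was resolved, since each interval included a ratio of 1. The plain ratio of treated to control was 0.915 for Top3a (interval 0.510 to 1.63), 0.864 for Top3b (0.702 to 1.06) and 0.807 for Tdp1 (0.545 to 1.19). As deposited these 3 were slightly lower with etoposide, and after median scaling slightly higher, with log2 folds of 0.18, 0.20 and 0.10.

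Tdp2, the enzyme that frees DNA ends from Top2 remnants, went against the common direction, at 3.01 FPKM without and 3.79 FPKM with the drug. The ratio of 1.26 had an interval of 0.936 to 1.70, so a difference was not detectable at about 88 and 100 fragments on the deposited scale. Its log2 fold of 0.26 nevertheless stood high among all genes, with 90.5% of the 10681 lower, and lay 0.58 above their median. Genes of its own span group (8.39 to 18.7 kb) had quartiles of -0.43 and 0.08, and Tdp2 lay above the upper one. With median scaling its log2 fold was 0.66.

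A ratio of 2 members within a library does not depend on how that library was scaled. Top2b over Tdp2 was not a planned ratio, and it sets the lowest log2 fold of the compared members with etoposide against the highest. It was 8.06 in the etoposide control (interval 6.51 to 10.1) and 3.31 with etoposide (2.69 to 4.10). The ratio was thus 2.44-fold lower and the intervals did not overlap, but a large difference follows from the choice of these genes. The same ratio was 5.21 (4.75 to 5.73) and 5.46 (4.98 to 5.99) in the NMDA control and with NMDA, so the control cultures themselves differed in it. Top2b over Top3b, also not planned, went the same way, at 5.22 (4.54 to 6.03) in the control and 3.13 (2.65 to 3.70) with etoposide. In the NMDA pair that ratio went from 5.42 (5.02 to 5.86) to 6.37 (5.89 to 6.91), also without overlap. Top2b over Top1 was 4.0 (3.58 to 4.47) and 3.37 (2.90 to 3.93), and Tdp2 over Tdp1 1.37 (0.988 to 1.92) and 2.14 (1.50 to 3.09), both with overlapping intervals. Top2b over Top2a was 30.4 (23.9 to 39.2) in the etoposide control and 53.4 (33.6 to 90.5) with etoposide, which also overlap.

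**Figure D2:**
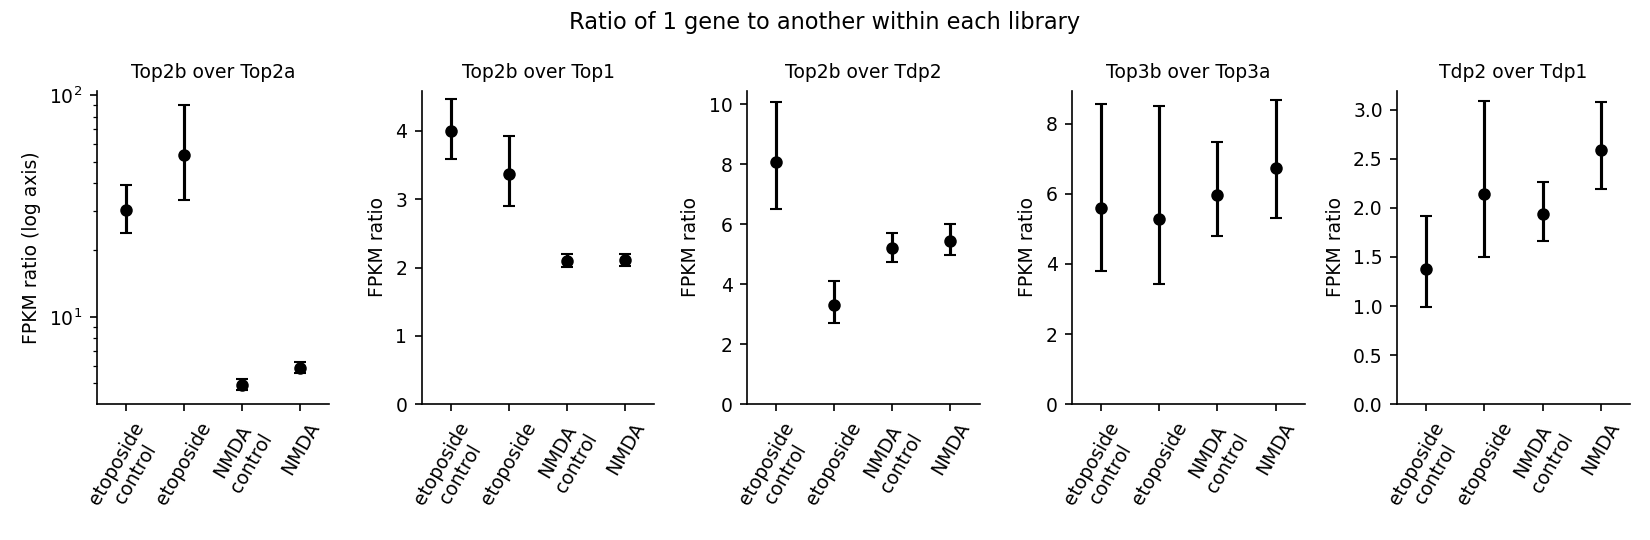
FPKM ratio of 1 gene to another within each library, with exact 95% counting intervals as bars (1 library per group, log axis for Top2b over Top2a). Top2b over Tdp2, an unplanned ratio of the compared members with the lowest and highest log2 fold with etoposide, is at 8.06 in the etoposide control and 3.31 with etoposide. Top3b over Top3a lies between 5.29 and 6.74 in all 4 libraries.

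By the size rule of at least 2-fold on the log2(FPKM + 1) scale, 0 of the 6 members compared were lower and 0 higher with etoposide. Over all genes 7.36% were lower and 0.477% higher by that rule. These are 786 lower and 51 higher genes. After median scaling the counts were 291 lower and 306 higher, but that scaling sets the median gene equal, which pulls them towards an even split. With scaling to the summed FPKM, leaving out Mir5109 and Mtrnr2l, they were 1034 lower and 111 higher. Top2b, at -0.90, was the compared member nearest to the limit on this scale. By plain ratio Top1mt was 2.02-fold lower and Top2a, which was not compared, 3.4-fold lower. The pseudocount compresses such low values. The median log2 fold of the 6 members was -0.33, against -0.32 for all genes, and the members ranged from Top2b at -0.90 to Tdp2 at 0.26. The difference between those medians moved with the processing, to -0.10 after median scaling and to -0.31 with all 8 members and all listed genes, of which 5887 and 5788 were at 0 in the control and etoposide libraries.

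NMDA against its control asks what brief activation of glutamate receptors does to these transcripts, and the differences were small. Top2b was at 58.5 and 67.7 FPKM, a ratio of 1.16 (interval 1.12 to 1.19), and Top1 at 27.8 and 32.1, a ratio of 1.15 (1.09 to 1.22). Their log2 folds were 0.21 and 0.20, and 92.5% and 91.8% of the 13028 genes compared were lower. The pan-neuronal markers stood higher as well, all 7 of them, at a median of 0.09 against 0.02 for all genes, 57.2% of which were above 0. Markers of other cells had medians below 0, at -0.08 for astrocytes (5 of 7 lower), -0.06 for the oligodendrocyte lineage (6 of 7) and -0.25 for vascular cells (3 of 3). The part of these cells in the values of Top1 and Top2b was not tested. The ratio of Top2b to Top1 was 2.10 in the control and 2.11 with NMDA. Against the etoposide control after median scaling, the log2 fold was 0.70 for Top1 but -0.16 for Top2b, so the direction for Top2b turned with the control.

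Tdp1 lay at the other end, at 5.78 and 4.78 FPKM, a ratio of 0.826 (interval 0.682 to 1.00) from about 255 and 195 fragments. Its log2 fold of -0.23 was above that of only 7.32% of genes. Top1 over Tdp1, likewise not planned, was 4.81 (interval 4.23 to 5.49) in the NMDA control and 6.72 (5.81 to 7.81) with NMDA. Tdp2 was at 11.2 and 12.4 FPKM, and its ratio of 1.10 had an interval of 0.972 to 1.26. The intervals of Top1mt (ratio 1.06, 0.877 to 1.29), Top2a (0.972, 0.901 to 1.05), Top3a (0.870, 0.633 to 1.19) and Top3b (0.985, 0.885 to 1.10) included 1 as well. For Top2a the log2 fold was -0.04, and 1.60 against the etoposide control after median scaling.

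None of the 8 members was at least 2-fold higher or lower with NMDA (0 of 8 in each direction), and over all genes 0.438% were higher and 0.729% lower. The members divided evenly, 4 above and 4 below 0, around a median of 0.03. None was in the authors' deposited table of 63 genes, which lists 0.111% of all 22440 genes as higher and 0.169% as lower.

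**Figure D3:**
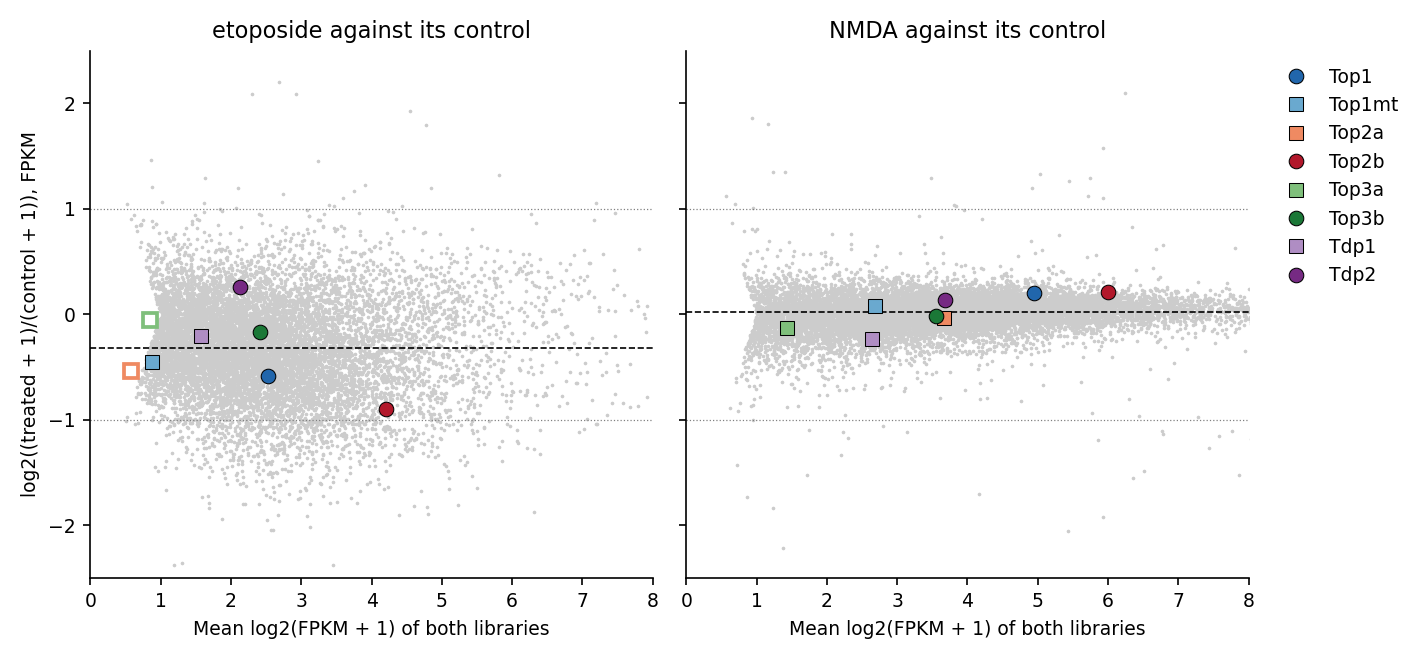
Log2 fold of treated over control, log2((treated + 1)/(control + 1)) of FPKM, against the mean level for all genes compared (grey) and the 8 members (coloured, open where FPKM was below 1 in both libraries). Dashed lines mark the median of all genes (-0.32 and 0.02), dotted lines 2-fold, and 66 and 399 genes lie outside the axes. On this scale Top2b is lowest and Tdp2 highest of the members with etoposide, and all 8 lie near 0 with NMDA.

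The control cultures differed from each other too, with 11.3% of 12354 genes at least 2-fold apart. After median scaling, Top2a was higher in the NMDA control than in the etoposide control by a log2 fold of 1.67, and 96.7% of those genes had a smaller value. Of 19 dividing-cell genes compared, 18 were above 0 there, with a median of 0.85 against 0.01 for all genes. Mki67 was at 0.271 FPKM in the etoposide control and 4.20 in the NMDA control, and Ccna2 (cyclin A2) at 1.08 and 10.1. Astrocyte markers (median 1.13, all 7 above 0) and oligodendrocyte lineage markers (median 1.69, all 7 above 0) stood higher too. Neuronal lists had medians below 0, at -0.14 for pan-neuronal, -0.61 for excitatory and -0.37 for inhibitory markers. Among the other members Top1 was at 0.54, Top1mt at 0.40, Tdp2 at 0.24, Tdp1 at -0.16, Top3a at -0.26, Top2b at -0.33 and Top3b at -0.34. For Top2b the log2 fold of the etoposide library after median scaling was -0.50 against its own control and -0.17 against the other, so the direction held and the size depended on the control. For Top2a these values were -0.60 and -2.27.

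The ratio of Top2b to Top2a showed the same contrast with no scaling. It was 30.4 and 53.4 in the etoposide control and with etoposide, and 4.94 (interval 4.67 to 5.23) and 5.89 (5.55 to 6.25) in the NMDA control and with NMDA. The RefSeq table held 19 windows for 18 of the 21 dividing-cell genes. Of these windows, 16 had a CCAAT or ATTGG match and 9 at least 2. The shares were 33.8% and 10.1% of all windows, and 35.5% and 12.7% for genes that reached 1 FPKM somewhere. Ube2c was the one dividing-cell gene with as many matches as Top2a, 6. Among lists described below, 7 of 10 windows had a match for handling of trapped topoisomerase. For Top3 partners, single-strand break repair and end joining these were 2 of 8, 3 of 7 and 3 of 8. Binding of NF-Y was not measured, and a part of the motif in the level of Top2a was not tested.

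**Figure D4:**
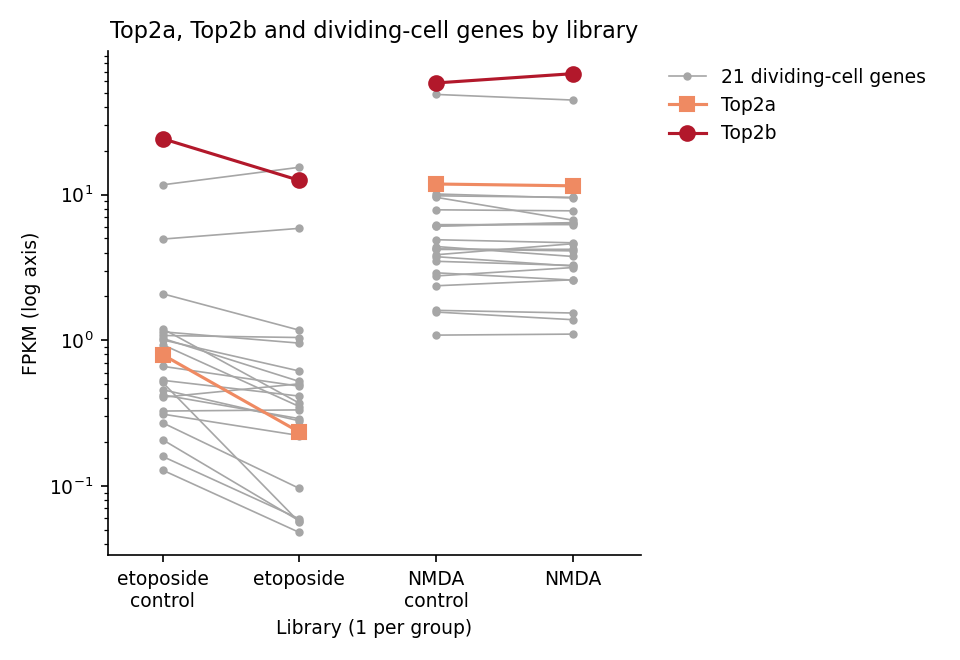
FPKM on a log axis of Top2a, Top2b and the 21 dividing-cell genes (grey) in the 4 libraries, with lines joining each control to its treated library. Top2a sits among the grey lines of the etoposide pair and above all but one of them in the NMDA pair, and Top2b is above Top2a throughout.

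Genes that work beside the topoisomerases were taken as lists. Of the 7 partners of Top3a and Top3b, 5 were compared with etoposide and 4 were lower, at a median of -0.39. Fxr2, an RNA-binding relative of the fragile X protein, was at 13.1 and 7.90 FPKM, Fmr1, the fragile X gene itself, at 6.30 and 4.53, and Rmi1 at 1.79 and 1.13, while Tdrd3, the partner of Top3b, was at 2.66 and 2.93. Blm, the Bloom helicase, was below 1 FPKM in both libraries. With NMDA the 7 partners had a median of 0.06, with Fmr1 at 22.2 and 26.1 FPKM.

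Genes that handle trapped topoisomerase had a median of -0.24 with etoposide, 7 of 10 lower and 3 higher, where 76.7% of all genes compared were lower. Vcp, an ATPase that pulls proteins off chromatin, was at 34.8 and 18.8 FPKM, Pias1, a SUMO ligase, at 3.04 and 1.52, and Rnf4, a ubiquitin ligase that targets SUMO chains, at 19.1 and 13.1. Zfp451, a SUMO ligase that assists Tdp2, was at 2.46 and 2.60 FPKM, and Sprtn (listed as Gm505), a protease of DNA-protein adducts, at 1.63 and 1.78. Of the nuclease complex that also clears Top2 from ends, Mre11a was at 1.18 and 0.768, Rad50 at 1.12 and 0.636 and Nbn at 1.96 and 1.62. With NMDA 9 of 11 were above 0, at a median of 0.06, against 57.2% and a median of 0.02 over all genes, with Nbn at 5.21 and 6.38 FPKM and Vcp at 156 and 177.

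The lists of single-strand break repair and end-joining genes had etoposide medians whose distance from that of all genes depended on the filter. The 8 single-strand break repair genes had a median of -0.02, with 4 higher and 4 lower. Parp1, the main sensor of strand breaks, was at 9.12 and 5.22 FPKM, and its relative Parp2 at 2.44 and 3.36. Polb, the gap-filling polymerase, was at 6.80 and 8.05. The 6 end-joining genes compared, which act after Tdp2, had a median of -0.07, with Xrcc5 (Ku80) at 2.14 and 1.38 FPKM, Prkdc (the DNA-dependent kinase) at 1.01 and 0.626 and Lig4 at 1.07 and 1.12. Against the -0.32 of genes at FPKM of at least 1 these medians were higher by 0.30 and 0.25. With no filter on low values, for the lists and for all genes, the differences were -0.002 and -0.05. All 8 single-strand break repair genes pass the filter, so for them only the median of all genes differed. Against the other control with median scaling the differences were 0.12 and 0.10. They were 0.29 and 0.24 with median scaling, 0.31 and 0.26 with sum scaling, and 0.37 and 0.31 with a pseudocount of 0.1 FPKM. In the NMDA comparison these lists had medians of -0.01 and 0.00, with Aplf at 4.90 and 4.02 FPKM and Nhej1 at 2.06 and 1.45. No compared gene of these 4 lists was at least 2-fold higher or lower in either comparison on the log2(FPKM + 1) scale. Over all genes compared, 7.36% were lower and 0.477% higher with etoposide, and 0.729% lower and 0.438% higher with NMDA.

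**Figure D5:**
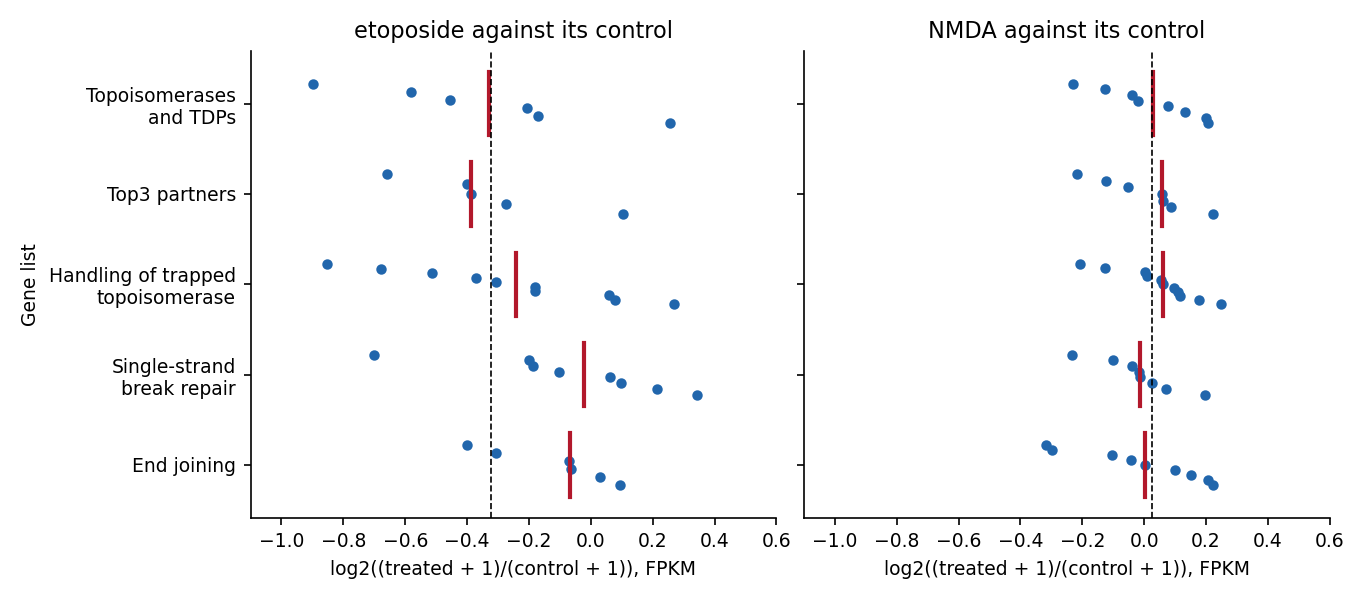
Log2 fold of each gene at FPKM of at least 1 in either library (blue points), with the median of its list (red) and of all genes (dashed), for etoposide and NMDA. With etoposide the single-strand break repair and end-joining medians are -0.02 and -0.07 against -0.32 for all genes, and with NMDA all medians lie between -0.01 and 0.06.

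The genes whose pattern over the 4 libraries was nearest to that of Top2b were 9330182L06Rik, Sez6l2, Mef2a, D17Wsu92e and 4933431E20Rik. Likeness was the distance between log2(FPKM + 1) values after subtracting the mean of each gene, and these 5 were at 0.02 to 0.06, against a median of 0.66 over 9532 genes. Sez6l2 was at 28.1, 14.2, 67.0 and 76.4 FPKM in the etoposide control, etoposide, NMDA control and NMDA libraries, and Mef2a, a transcription factor of neurons, at 7.95, 3.75, 20.7 and 23.1. Top1 was no nearer to Top2b than the median gene, at 0.67. The FPKM were not scaled between the pairs, so this distance includes how far each gene differed between them. The NMDA control over the etoposide control was 4.59 for Top1 and 2.41 for Top2b. Within pairs, their log2 folds were 0.20 and 0.21 with NMDA, and -0.58 and -0.90 with etoposide. For Top1 itself the nearest were Gde1, Nalcn, Ppa2, Arhgap23 and Vav2, and Nalcn, a sodium leak channel, was at 3.66, 2.22, 18.6 and 20.8 FPKM.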

How the data were processed

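RNA-seq was analysed from 4 libraries, 1 per group, of cultured mouse cortical neurons, grouped by sample title. FPKM were used as the authors deposited them. Tools named in the submitters' processing notes, without their roles, include Cufflinks 2.0.0, Cuffdiff, TopHat and Bowtie, with the build mm9, and a total RNA kit and paired ends are given per the labels' protocols. Whether counting used strand was not given in the sources used here. Controls were paired with treatments through the authors' deposited comparison tables, whose FPKM equal those of the library tables within a relative 0.0001. Fold was log2((treated + 1)/(control + 1)), which understates the change of low genes, for genes reaching an FPKM of 1 in either library. No test was run on single libraries. Median scaling used the genes at FPKM of at least 1 in all 4 libraries.

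Fragment totals and the bases subtracted from each length (200 to 280) were read from the 29 to 43 single-exon genes lying within 0.05 of 1 fragment. Fragments per member used the shortest coding transcript over at least 90% of the span. Intervals of FPKM are exact Poisson, and those of ratios Clopper-Pearson intervals. Locus starts had 1 added, since they count from 0. Promoters came from the RefSeq table of build GRCm38.p6, with 5 of 8 members matched, and were placed in mm9 by exact match. Symbols absent from the tables were matched through RefSeq synonyms.

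The members, gene lists and alternatives were chosen with earlier results of these data known. All members are named, with up to 5 genes per further list, by fold, and the 5 genes nearest in pattern to Top2b and to Top1. Further genes, such as Zfp451, Sprtn, Tdrd3, Lig4, Blm, Nes and Vim, were named after their values were seen. The steps were tested on simulated data in Python 3.11.15 with numpy 2.4.6, pandas 2.3.3 and scipy 1.17.1.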

Additional observations from a re-analysis of the deposited data

How the results depend on the processing

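With 1 library per group no replicate could be left out and no paired analysis was possible because each group holds 1 sample. Member log2 folds kept their sign with a pseudocount of 0.1 FPKM, without a filter, at FPKM of at least 5 and with sum scaling that left out Mir5109 and Mtrnr2l. Median scaling turned the sign of 3 of 15 (Top3a, Top3b and Tdp1 with etoposide), and the other control with median scaling that of 5 of 16 (the same 3, and Top2a and Top2b with NMDA). Median scaling multiplied FPKM by 1.63 in the etoposide control and by 2.20 with etoposide, which raised every plain ratio of that comparison. The cause of the sign changes with the other control was not tested.

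Counts of all genes at least 2-fold higher and lower with etoposide were 51 and 786 as reported, and 127 and 1551 with the smaller pseudocount. They were 306 and 291 with median scaling, which draws the counts together, and 111 and 1034 with sum scaling. The other control and median scaling together gave 651 and 1192, and a limit of 1.5-fold gave 241 and 2940. With NMDA they were 57 and 95, against 925 and 349 with the other control and median scaling together, and 88 and 166 at 1.5-fold. Members past the rule went from 0 to 1 lower with etoposide at 1.5-fold (Top2b) and, with the other control and median scaling, to 1 lower with etoposide and 1 higher with NMDA (Top2a in each).

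List medians relative to all genes varied with the filter and with the control used. Genes at 0 in both libraries have a log2 fold of 0, so taking them in raised the median of all genes with etoposide. Without a filter on low values the etoposide values went from 0.30 to -0.002 for single-strand break repair, 0.25 to -0.05 for end joining, 0.08 to -0.16 for handling of trapped topoisomerase, 0.10 to -0.12 for dividing cells, -0.07 to -0.26 for Top3 partners and -0.01 to -0.31 for the members. With the other control and median scaling, the dividing-cell median was -0.86 with etoposide and 0.69 with NMDA, and the single-strand break repair median 0.21 with NMDA. The etoposide values of single-strand break repair and end joining were 0.29 and 0.24 with median scaling, and 0.31 and 0.26 with sum scaling. At FPKM of at least 5 the single-strand break repair value was 0.52, from the few of its genes that remained.

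A pseudocount of 1 lowered ratios within a library. Top2b over Top2a became 14.0, 11, 4.63 and 5.50 in the order etoposide control, etoposide, NMDA control and NMDA, and so no longer was highest with etoposide. Top3b over Top3a became 3.08, 2.85, 4.19 and 4.51, and Top2b over Top1 3.57 and 2.87 in the etoposide pair.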

Other observations

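Tyms stood apart from the other dividing-cell genes. It was at 4.95 and 5.87 FPKM in the control and treated libraries of the etoposide pair and at 1.56 and 1.38 in those of the NMDA pair, so its level was lower in the pair where Top2a was higher. After median scaling it was the 1 gene of the 19 compared that was lower in the NMDA control than in the etoposide control, with a log2 fold of -2.31. Spo11, the meiotic relative of the type II enzymes, was listed at 0 in 3 of the 4 libraries and at 0.0327 FPKM in the NMDA control.

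Some genes of the lists fell below 1 FPKM in both libraries of the etoposide pair and stand outside its medians. Nhej1, an end-joining factor, was at 0.172 and 0.320 FPKM there, Rmi2 (listed as A630055G03Rik), a partner of Top3a, at 0.555 and 0.909, and Poll, a polymerase of end joining, at 0.928 and 0.566. Brca1 was at 0.0961 and 0.0952.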
